A study of Mus musculus with 8 samples.

Results

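Activated mouse hepatic stellate cells that carried the microRNA miR-15a were compared with activated cells for which no microRNA is named, over all genes of the deposited expression table. The table lists 14162 genes by symbol, and 13150 of them reached a score of 10 in no fewer than 2 libraries and were tested. The comparison takes 4 of the 8 libraries of the series, the activated libraries a and b and the miR-15a libraries a and b. The other 4 are the quiescent libraries a and b and the libraries a and b of activated cells with a control microRNA, and their values stand beside those of the comparison. Each group is thus labelled as hepatic stellate cells of the mouse, quiescent, activated, activated with miR-15a or activated with a control microRNA. C57BL/6J and SCID mice are both named, but the labels do not assign a strain, an age or a treatment time to a library. They do not say how the cells were activated, how either microRNA was given, or whether libraries a and b came from separate animals or cultures. The p-values therefore measure library-to-library spread only, and part or all of that spread may be technical. Nor do they say what the activated cells without a named microRNA received, so effects of delivery and of the miR-15a sequence cannot be told apart in this comparison alone, and the values of the control microRNA libraries are given beside it. The purpose stated for the series was to find genes that miR-15a is likely to target.

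Hepatic stellate cells store vitamin A in the healthy liver. When activated they become contractile myofibroblasts that secrete collagen, and they are the main source of scar matrix in liver fibrosis. A microRNA is a short RNA that guides Argonaute proteins to messenger RNAs, mostly through pairing between its seed, bases 2 to 8, and the 3′ untranslated region (3′ UTR), which lowers the level and translation of the target. The miR-15 and miR-16 family is known for repressing cyclins and BCL2, and its members share 1 seed.

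The mature sequence of mouse miR-15a and of close family members is shown to make that seed visible (RefSeq, GRCm38.p6). Capitals mark bases 2 to 8, and miR-15a is encoded on the minus strand at chr14:61632075-61632096, within the host transcript Dleu2.
miR-15a: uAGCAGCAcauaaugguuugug
miR-15b: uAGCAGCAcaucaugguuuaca
miR-16: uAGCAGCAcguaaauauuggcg
miR-195a: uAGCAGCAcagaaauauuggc
miR-322: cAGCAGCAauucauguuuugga
miR-497a: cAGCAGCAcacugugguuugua
A messenger RNA that pairs with these bases holds TGCTGCT, and the match extended by an A at its 3′ end is TGCTGCTA. The level of mature miR-15a itself is not among the values used here. Its host transcript Dleu2 stood at 75 and 83 in the activated libraries, at 76 and 84 with miR-15a, and the control libraries had 72 and 78. The groups overlapped and no change was called (log2 fold change 0.02 ± 0.13 SE, adjusted p = 0.93, limma).

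The deposited values are scores with the same 910 distinct whole numbers in every library, so library depth is unknown and no counting interval can be given. Fold changes are differences of log2(score + 5), negative where miR-15a was lower, and calls were made where the adjusted p was under 0.05 (limma, n = 2 libraries a group). At high levels the scores lie on shared steps and 10 genes of a library share the highest value of 125636, so libraries can be tied and the SE of such genes may be too small. Across genes the activated libraries correlated at r = 0.986 and the miR-15a libraries at r = 0.990, while pairs across these groups had r from 0.925 to 0.941. Most endothelial and macrophage markers were higher in the miR-15a libraries than in the activated ones, as was the summed score of hepatocyte markers, of which most did not pass the test, with values given below. The sex-linked genes also differed between the groups. Xist, which is expressed from the inactive X chromosome of female cells, stood at 169 and 21 in the activated libraries, 3373 and 3373 with miR-15a, 3373 and 5027 in the control libraries and 8724 and 8724 in quiescent cells. Ddx3y, a Y-linked RNA helicase, stood at 2606 and 2570, 1046 and 1006, 1282 and 1268 and 44 and 40 in the same order. Both microRNA groups thus held more Xist and less Ddx3y than the activated libraries, and the part of this difference in any other result was not tested.

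Between miR-15a and activated cells 5045 genes were called, 38.4% of those tested. Of these, 2204 genes (16.8%) were higher and 2841 genes (21.6%) were lower with miR-15a. Large changes were mostly increases: 827 called genes were higher by a log2 fold change over 1 and 351 were lower by as much, and beyond a log2 fold change of 2 there were 381 increases and 15 decreases. Libraries of the groups did not overlap in 71.4% of the tested genes, so a lack of overlap is common here. The median log2 fold change of all tested genes was -0.10. Median-ratio scaling of the libraries moved that median by 0.14 to 0.04 and turned the split to 3111 higher and 1620 lower, so the balance of higher and lower calls depends on the scaling and group medians below are given against the median of all genes. The count of lower genes fell to 1129 when activated library b was left out and to 1554 when activated library a was. Leaving out miR-15a library b gave 1666 and leaving out miR-15a library a gave 1865, and the count of higher genes stayed between 1526 and 2281 over all 8 libraries left out in turn. For comparison, 1813 genes (13.8%) were called between the control microRNA and activated cells, 944 higher (7.18%) and 869 lower (6.61%). The difference between the miR-15a and control microRNA libraries tests whether the effects of both against activated cells differ, and it was called for 3926 genes (29.9%), of which 1897 (14.4%) were higher with miR-15a and 2029 (15.4%) were lower.

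Part of the lower calls belonged to genes near the bottom of the scale. There were 537 genes whose 8 values lay within 2 score units of those of another gene no more than 30 rows away in the table, with a highest value from 8 to 100. The highest values in these runs were 73 and 80 in the activated libraries, 47 and 46 with miR-15a and 54 and 50 with the control. Of the 419 such genes tested, of which 132 encode olfactory or vomeronasal receptors, limma called 388 lower (92.6%) and 0 higher, and 0 were higher at an unadjusted p under 0.05. Their median was -0.67, and how the runs arose is not recorded in the labels. Without them 2333 genes were lower and 2148 higher, and among genes with a mean score of at least 100 over the 8 libraries the counts were 1877 lower and 1901 higher.

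**Figure D1:**
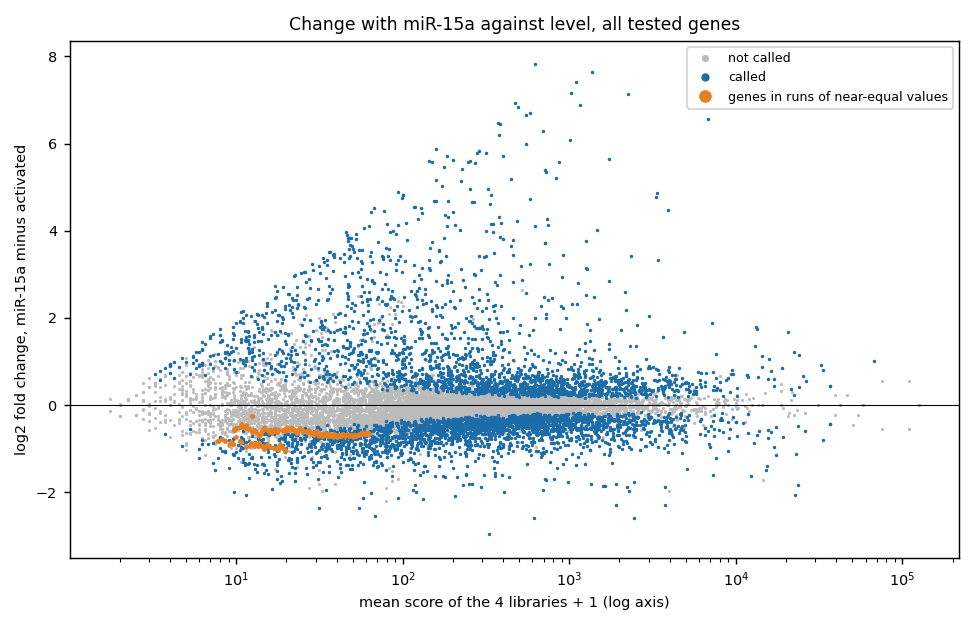
The log2 fold change of miR-15a minus activated (vertical axis, log2 of score + 5) is plotted against the mean score of the 4 libraries + 1 (horizontal axis, log scale) for the 13150 tested genes, with called genes in blue, other genes in grey and genes in runs of near-equal values in orange. Increases reach a log2 fold change of 7.82 while the largest decrease is -2.96, and the 419 genes in runs lie below 0 at low scores.

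Among extracellular matrix lists more genes fell than rose, except that matrix proteases and their inhibitors were nearly even, and Col1a1 and Col1a2, the chains of type I collagen, were not called. Of 11 elastic fibre genes 3 fell (27.3%) and 1 rose (9.09%), beside 21.6% and 16.8% of all genes, with a median of -0.19. With median-ratio scaling 2 fell and 1 rose, with a median of -0.05 against 0.04 for all genes. The 1 increase was not called without either quiescent library, activated library a or miR-15a library b. Eln, which encodes elastin, stood at 612 and 560 in the activated libraries, at 53 and 94 with miR-15a, and the control libraries had 244 and 232. The groups did not overlap, and Eln had the largest decrease by the rule for named genes (log2 fold change -2.96 ± 0.24 SE, adjusted p = 0.00011). It was also lower than with the control microRNA (-1.68, adjusted p = 0.0025), which itself was below activated cells (-1.28, adjusted p = 0.018). Of 13 interstitial collagen genes tested 7 fell and none rose, also at an unadjusted p under 0.05, with a median of -0.44 against -0.10 for all genes. Col14a1, a collagen that binds to fibril surfaces, went from 6000 and 6462 to 1124 and 1420, below every other library of the series, and the control microRNA libraries had 2498 and 3263. Col5a3, a minor chain of type V collagen, fell from 1541 and 1614 to 615 and 594 (log2 fold change -1.38 ± 0.09, adjusted p = 2.8e-05) and was 1308 and 1515 with the control microRNA, where no change against activated cells was called. The same held for Col12a1, another fibril-associated collagen, at 20500 and 24099 in activated cells, 8202 and 7720 with miR-15a and 20500 and 24099 in control libraries. By contrast Col1a1, the main chain of type I collagen, stood at 18677 and 20504 in activated cells and 18677 and 18677 with miR-15a (-0.07 ± 0.22, adjusted p = 0.83), and its log2 fold change was 0.08 with median-ratio scaling. It was lower than with the control microRNA, which had 24105 and 42360 (-0.77, adjusted p = 0.036). Col1a2 was at the shared maximum in all 6 libraries of activated cells, so no difference could be seen in it.

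Of 19 enzymes and chaperones that process collagen 14 fell and none rose, with a median of -0.54, and 15 were lower and 0 higher at an unadjusted p under 0.05. Plod2, the lysyl hydroxylase that prepares stable cross-links, stood at 10504 and 11352 in the activated libraries and at 3602 and 3602 with miR-15a (log2 fold change -1.60 ± 0.07, adjusted p = 6.3e-06) and at 8202 and 7286 with the control, between the other groups. Loxl2, a lysyl oxidase that cross-links collagen, fell by 0.82 and Adamts2, which cuts the propeptide from procollagen, fell by 0.98. Adamts2 stood at 4776 and 5027 in activated and 5027 and 4899 in control libraries, against 2570 and 2385 with miR-15a. Of 18 basement membrane genes 11 fell and 2 rose (median -0.53). Col18a1, the source of endostatin, fell by 1.85, Lama2, a laminin chain, by 1.82 and Nid2, a linker of laminin and collagen IV, by 1.44. The laminin gene Lama4 rose, from 302 and 248 to 1215 and 1146, and it was at 1094 and 1050 with the control microRNA, where the difference between miR-15a and control was not called (0.14, adjusted p = 0.31).

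Secreted proteins that sit in the matrix were also lower more often than higher. Lower genes made up 46.7% of the matricellular and 50% of the proteoglycan list, beside 21.6% of all genes. Higher genes made up 13.3% and 12.5%, beside 16.8% of all genes. Of 15 matricellular genes 7 fell and 2 rose (median -0.18), and of 16 proteoglycan genes 8 fell and 2 rose (median -0.50), the latter count being 1 without activated library a or either miR-15a library. Postn, the matricellular protein periostin of myofibroblasts, stood at 42350 and 31224 in the activated libraries, 24099 and 20500 with the control and 8724 and 8724 with miR-15a. These are values on shared steps, and the miR-15a libraries were the lowest of the 6 (log2 fold change -2.06, adjusted p = 5.3e-05). Thbs2, a thrombospondin, fell from 5561 and 6288 to 1440 and 1794 (-1.88 ± 0.11, adjusted p = 2.4e-05). The small leucine-rich proteoglycan genes Ogn and Podn fell by 1.86 and 2.36, and the heparan sulfate proteoglycan gene Gpc6 fell by 1.69. Genes for matrix proteases and their inhibitors were divided, with 5 higher (23.8%) and 6 lower (28.6%) of 21, beside 16.8% and 21.6% of all genes. The lower count was smaller without activated library b. Mmp12, the macrophage elastase, rose from 434 and 410 to 2276 and 2500, close to the 2758 and 2866 of the quiescent libraries, while the control libraries had 332 and 348. Adamts12, a protease of the matrix, fell by 1.82. Timp1, an inhibitor of metalloproteases induced on activation, stood at 3168 and 3514 in activated cells, 4266 and 6825 with miR-15a and 6464 and 6290 with the control, and no difference between miR-15a and activated cells was called (0.69 ± 0.40, adjusted p = 0.21).

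**Figure D2:**
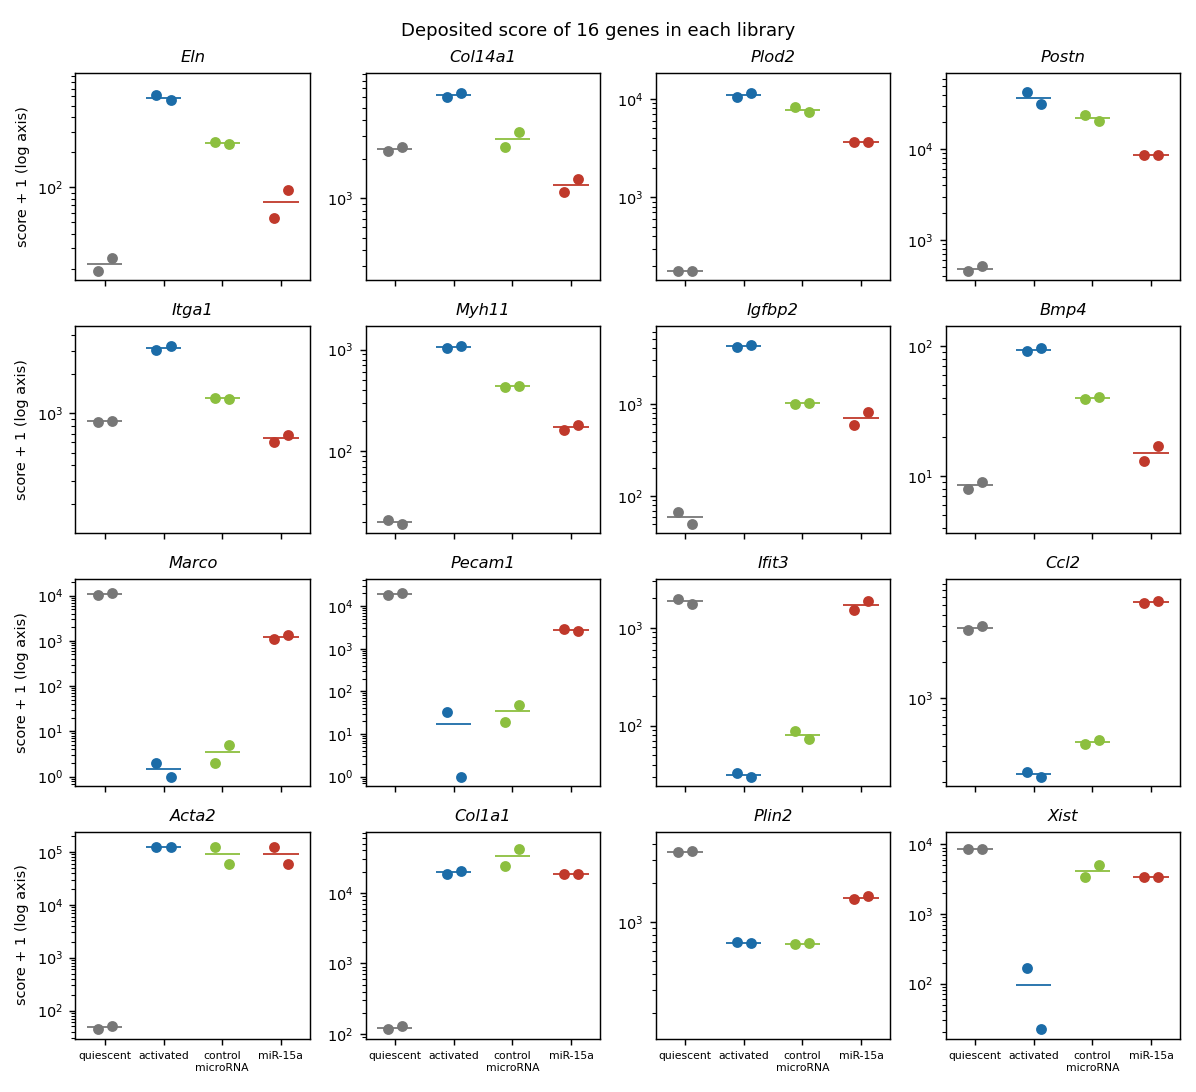
Each panel shows the deposited score + 1 (log axis) of 1 gene in the 8 libraries, 2 points a group with a line at their mean. Eln, Col14a1, Plod2, Postn, Itga1, Myh11, Igfbp2 and Bmp4 are lowest with miR-15a among the activated groups, Marco, Pecam1, Ifit3, Ccl2 and Plin2 are highest there, the Acta2 libraries overlap, Col1a1 is highest with the control microRNA, and Xist is low in the activated libraries only.

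The contractile apparatus changed unevenly. Of 22 contractile genes 11 fell and 3 rose, with a median of -0.57. With the control microRNA 7 fell, and between miR-15a and control 7 were lower and 2 higher, with a median of 0.02. Myh11, smooth muscle myosin, stood at 1030 and 1076 in the activated libraries, 429 and 436 with the control and 160 and 181 with miR-15a, and the groups did not overlap (log2 fold change -2.59 ± 0.10, adjusted p = 3.5e-06; against the control -1.32, adjusted p = 0.0001). Myh10, a nonmuscle myosin, fell by 0.94 against activated cells and no change was called in the control libraries (0.19, adjusted p = 0.2). For Cnn1, calponin, and Mylk, myosin light chain kinase, the decreases of 0.74 and 0.61 stood beside -0.80 and -0.70 in the control libraries, and no difference between miR-15a and control was called (adjusted p = 0.64 and 0.36). Acta2, the smooth muscle actin that marks activation, was at the shared maximum in both activated libraries and at 125636 and 58193 with miR-15a, with 125636 and 58193 in the control libraries, so libraries overlapped and no change was called (adjusted p = 0.33). Tpm4, a tropomyosin, rose, from 24105 and 20504 to 42360 and 42360. Des, the intermediate filament protein desmin, was low in all groups, at 56 and 48 and 31 and 42, and was not called.

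Adhesion receptors showed decreases without a called increase. Of 26 integrin and focal adhesion genes 14 fell and none rose (median -0.46), with 19 lower and 0 higher at an unadjusted p under 0.05. Itga1, the collagen-binding α1 chain, stood at 3047 and 3317 in the activated libraries, 1308 and 1294 with the control and 606 and 678 with miR-15a, lower than the 856 and 880 of quiescent cells (log2 fold change -2.30 ± 0.07, adjusted p = 1.4e-06). Itga11, a receptor for fibrillar collagen on fibroblasts, went from 3514 and 3812 to 916 and 940, with 2224 and 2758 in the control libraries. Tln2, a talin that links integrins to actin, fell by 0.84 with miR-15a and stood at 1541 and 1604 in the control libraries against 1614 and 1604 in activated cells. For Itga8, a marker of myofibroblasts, the decrease of 1.18 had a counterpart of 1.06 in the control libraries, and the difference between both was not called (adjusted p = 0.46).

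Among growth factor pathways, the called genes of the transforming growth factor β (TGF-β) pathway were near the share of all genes. Of 21 tested 4 were higher (19%) and 6 lower (28.6%), beside 16.8% and 21.6% of all genes, and the median of -0.13 turned to 0.02 with median-ratio scaling. The count of 4 was 2 without activated library a and 1 without activated library b. The ligand gene Tgfb2 fell from 1056 and 1155 to 334 and 334 (log2 fold change -1.71 ± 0.21, adjusted p = 0.00076), and Tgfb3 fell by 1.10 with miR-15a and by 0.93 with the control. The signalling receptor gene Tgfbr1 fell by 0.44, while the coreceptor gene Tgfbr3 rose from 30 and 20 to 205 and 208. In the pathway of bone morphogenetic proteins (BMPs) 7 genes were higher (41.2%) and 3 lower (17.6%) of 17. Bmp4 stood at 90 and 96 in activated cells and at 12 and 16 with miR-15a, near the 7 and 8 of quiescent cells, and Bmp2 did the opposite, from 3 and 2 to 96 and 104. The receptor gene Bmpr1a fell from 2276 and 2422 to 1222 and 1118 (log2 fold change -1.003 ± 0.07, adjusted p = 4.0e-05), with 2330 and 2330 in the control libraries. The control values are thus close to those of activated cells, and the difference between both microRNAs was called (adjusted p = 6.0e-05).

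Of 15 genes for platelet-derived and vascular endothelial growth factors and their receptors, 7 rose (46.7%) and 7 fell (46.7%). Among all genes 16.8% rose and 21.6% fell. Among receptors known from endothelium, Flt4 went from 5 and 0 to 201 and 190 and Nrp2 from 340 and 350 to 1716 and 1743. Flt1, a further receptor, rose from 92 and 89 to 211 and 222, and it was higher still with the control at 425 and 444. Pdgfrb, the receptor through which platelet-derived growth factor drives stellate cells to divide, fell from 7286 and 7720 to 4665 and 4776 (-0.67 ± 0.09, adjusted p = 0.0012), and the control libraries lay between at 6000 and 6822. Of 12 Notch genes 4 rose (33.3%) and 6 fell (50%). Notch3, the receptor of mural cells, fell by 1.99 and its ligand gene Jag1 by 1.35, from 1772 and 1794 to 688 and 704, while Notch4 and Notch1, receptors of endothelium, rose by 2.55 and 1.28. Of 16 Wnt genes 9 fell and 3 rose (median -0.48), and the count of 9 was 5 with median-ratio scaling and without activated library b. The 9 and 3 Wnt genes made up 56.2% and 18.8% of that list. The ligand gene Wnt4 fell from 173 and 196 to 44 and 44. Sfrp1, a secreted Wnt antagonist, rose from 64 and 38 to 272 and 222 but stood at 630 and 584 with the control, so that miR-15a was lower than the control (-1.29, adjusted p = 0.0069).

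Of 12 genes of the insulin-like growth factor axis 5 fell and 2 rose, the latter count being 1 without activated library a or either miR-15a library. The 5 and 2 genes made up 41.7% and 16.7% of the list, beside 21.6% lower and 16.8% higher among all genes. Igfbp2 and Igfbp5, binding proteins for insulin-like growth factors, were among the largest decreases. Igfbp2 stood at 4088 and 4266 in activated cells, 585 and 804 with miR-15a and 990 and 1024 with the control, so most of its decrease of 2.60 was also present with the control (-2.05). Igfbp5 went from 114 and 122 to 14 and 18 (log2 fold change -2.56 ± 0.22, adjusted p = 0.00014), while its decrease with the control was not called (-0.54, adjusted p = 0.14). Of 24 Hippo kinases and targets of the coactivator YAP 10 fell and 3 rose, the latter count being 1 without activated library a and 5 with median-ratio scaling. In the main fit 41.7% of this list fell and 12.5% rose. The kinase gene Lats1 fell from 1146 and 1208 to 670 and 626 and stood at 1208 and 1308 with the control. Cyr61, a secreted YAP target, fell by 0.58. Among 15 mesenchymal transcription factor genes 6 fell and 1 rose, and 2 rose without activated library b or with median-ratio scaling. The one that rose was Gata4, known to hold stellate cells in quiescence, from 58 and 44 to 228 and 262 with 162 and 132 in the control libraries and 2954 and 2866 in quiescent cells. In the main fit 40% of this list fell and 6.67% rose.

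Markers of sinusoidal endothelium had the largest median increase of all lists tested, and those of resident macrophages rose with them. Of 27 endothelial markers 24 rose and 1 fell, with a median of 4.44, and of 25 macrophage markers 24 rose and 1 fell, with a median of 2.75, and 0 fell without activated library a, activated library b or miR-15a library b. Pecam1, the adhesion molecule at endothelial junctions, stood at 32 and 0 in the activated libraries, 2865 and 2570 with miR-15a, 18 and 48 with the control and 18666 and 20500 in quiescent cells. Stab1, which clears waste from blood in the liver sinusoids, had 36 and 24, 1353 and 1461, 84 and 130 and 31224 and 31224 in that order. The endothelial junction genes Cdh5 and Cldn5 rose by 6.69 and 6.93, and Mmrn2, of the endothelial matrix, by 6.85. Marco, a scavenger receptor of resident macrophages, was at 1 and 0 in the activated libraries and 1124 and 1353 with miR-15a. Its log2 fold change of 7.82 rests on the added 5, and it was 9.77 with an added 1 and 5.93 with an added 20. Cd5l, a secreted product of macrophages, went from 18 and 2 to 1977 and 2361, and Msr1, another scavenger receptor, from 138 and 160 to 1614 and 1730 with 170 and 180 in the control libraries. In each of these 8 genes both miR-15a libraries lay above all libraries of activated cells and of cells with the control.

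Summed over the list, endothelial markers came to 2371 and 2104 in the activated libraries, 16180 and 16248 with miR-15a, 2188 and 2698 with the control and 315869 and 245369 in quiescent cells. Macrophage markers came to 2753 and 2534, 18286 and 19984, 3379 and 3143, and 172376 and 194513 in the same order. Of the 27 endothelial markers 2 and 3 were listed at 0 in the activated libraries and none with miR-15a, and of the macrophage markers none and 1 were at 0 in the activated libraries and none with miR-15a. Of 24 hepatocyte markers 5 rose and none fell, a share of 20.8% beside the 16.8% of all genes (median 0.85, with 6 higher and 0 lower at an unadjusted p under 0.05), and the count of 5 was 2 without activated library a or miR-15a library b, 3 without miR-15a library a and 11 without either control library. Their sum was 532 and 779 in activated cells, 1953 and 2705 with miR-15a, and 378 and 1884 with the control, so the control libraries differed among themselves. Apob, the protein of liver lipoproteins, went from 98 and 117 to 322 and 388. Of 7 smooth muscle cell markers 4 fell (57.1%) and 0 rose, and 3 fell with the control. Of 9 mesothelial and portal fibroblast markers 3 rose (33.3%) and 2 fell (22.2%), beside 16.8% and 21.6% of all genes. Transcripts of fewer than 3 tested genes stood for cholangiocytes, lymphocytes, neutrophils and erythroid cells. Of 2 cholangiocyte genes 1 fell, and of 2 erythroid genes 1 fell, the latter a call lost with median-ratio scaling. The neutrophil receptor gene Csf3r rose from 0 and 6 to 12 and 12, a call lost without either quiescent library, either miR-15a library or activated library a, and the T cell gene Cd4 stood at 2 and 1 and 2 and 2 and was not called. More cells of a type and more RNA per cell cannot be told apart in these bulk libraries, and the part of these transcripts in the other results was not tested.

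The quiescent libraries give a measure for the size of these increases. In them the quiescent stellate markers summed to 31674 and 32746, against 315869 and 245369 for endothelial and 172376 and 194513 for macrophage markers. These sums depend on the genes listed. A percent of the quiescent level is therefore not a measure of stellate cell quiescence alone. There were 442 tested genes at a mean score of at least 500 in quiescent cells and under 10% of that in activated cells, chosen by these values, so what follows is a description. With miR-15a they reached a median of 12.8% of the quiescent level, from 7.69% at the lower quartile to 21.2% at the upper, against 2.36% in activated cells and 3.1% with the control. The 22 endothelial markers among them reached a median of 9.36% and the 22 macrophage markers 11.1%. The 6 quiescent stellate markers among them had a median of 1.93%, and they ranged from 0.612% to 69%. The 18 interferon response genes had a median of 33.2%, and 10 of them were over 30%, as were 1 of the endothelial and 2 of the macrophage markers. Of all 442 genes 56 were over 30%.

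**Figure D3:**
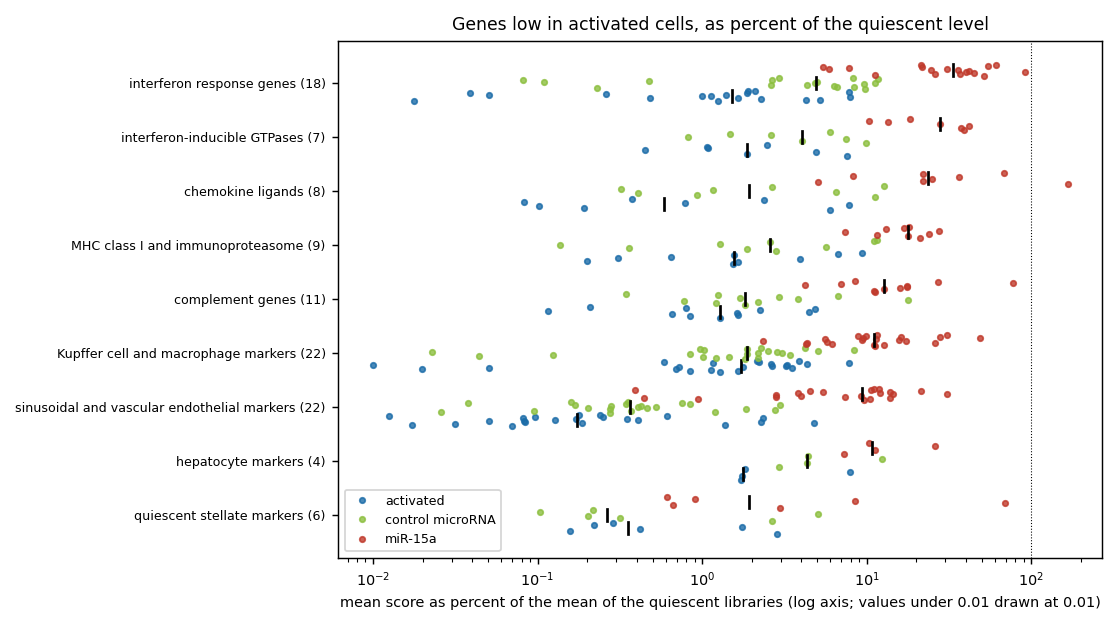
For genes at 500 or more in quiescent cells and under 10% of that in activated cells, the mean score as percent of the quiescent mean (horizontal axis, log scale) is drawn for activated, control microRNA and miR-15a libraries, 1 point a gene and a bar at the median, with the number of genes in brackets. The miR-15a medians run from 1.93% for quiescent stellate markers to 33.2% for interferon response genes, and Ccl2 is the point at 166%.

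Genes of the interferon response rose almost without exception. Of 33 tested 32 rose and none fell, also at an unadjusted p under 0.05, with a median of 2.90, and 31 to 32 rose with any 1 library left out. With the control microRNA 19 rose and none fell, with a median of 0.62, and between miR-15a and control 32 were higher with miR-15a. Ifit3, an antiviral protein induced by interferon, stood at 32 and 29 in the activated libraries, 88 and 72 with the control, 1508 and 1896 with miR-15a and 1976 and 1744 in quiescent cells (log2 fold change 5.58 ± 0.14, adjusted p = 7.3e-07). The miR-15a libraries therefore reached 91.5% of the quiescent mean. Cmpk2, a mitochondrial kinase beside Rsad2 in the genome, went from 1 and 0 to 312 and 318, and Rsad2, the antiviral enzyme viperin, from 26 and 7 to 2224 and 2360, with 39 and 30 in the control libraries. Parp14, which adds ADP-ribose to proteins, rose by 4.73 ± 0.10 and Rtp4, a receptor chaperone, by 3.31 ± 0.10. Isg20, an exonuclease, was the 1 gene of the list that was not called higher, named after its values were seen. It stood at 37 and 43 in activated cells and 38 and 15 with miR-15a, and without miR-15a library a it was called lower. Of 12 interferon-inducible GTPases 11 rose and 1 fell, among them Gbp3 from 41 and 24 to 594 and 694 and Irgm1 from 613 and 485 to 2002 and 1976. The 1 decrease was not called with median-ratio scaling, with a replicate block, or without any 1 of the 6 activated, miR-15a or control libraries. Many of these genes are also expressed by macrophages and endothelial cells, whose markers moved with them as given above.

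Antigen presentation and chemokine genes were mostly higher as well. All 16 class I and immunoproteasome genes tested rose, with a median of 2.51, and 15 or 16 did so with any 1 library left out. H2-K1, a classical class I heavy chain, stood at 447 and 342 in the activated libraries, 450 and 452 with the control and 3994 and 4546 with miR-15a, and H2-D1 at 106 and 86, 184 and 169 and 1380 and 1268. Related class I genes can share reads, so H2-Q4, which rose by 5.13, is uncertain. With the control microRNA 6 class I and immunoproteasome genes (37.5%) rose and none fell, beside 7.18% and 6.61% of all genes. Against the control 15 (93.8%) were higher with miR-15a and 0 lower, beside 14.4% and 15.4% of all genes. Of 5 class II genes 4 rose, for example H2-Aa from 0 and 2 to 85 and 91, against 3812 and 3994 in quiescent cells. Of 13 chemokine genes 11 rose and 1 fell (median 3.10). Ccl2, which attracts monocytes, stood at 241 and 218 in the activated libraries and 6288 and 6462 with miR-15a, above the 3682 and 3994 of quiescent cells, and the control libraries had 414 and 444 (log2 fold change 4.77 ± 0.07, adjusted p = 2.9e-07). Cxcl5 and Cxcl1, which attract neutrophils, went from 2 and 2 to 364 and 361 and from 15 and 23 to 796 and 936. Cxcl5 was also raised with the control, at 69 and 66, and was higher with miR-15a (2.34, adjusted p = 1.1e-05). Ccl6, a chemokine of myeloid cells, rose from 12 and 7 to 2002 and 2062.

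Of 17 complement genes 13 rose and 2 fell (median 2.93), and of 29 genes of Toll-like receptors and NF-κB 17 rose and 5 fell (median 0.65). The counts of 2 and 5 were 0 and 2 with median-ratio scaling. They were 0 and 2 without activated library a, 0 and 3 without activated library b, and 1 and 2 without miR-15a library b, and the count of 2 was 1 without miR-15a library a. C1qa, a subunit of the first complement component made by macrophages, went from 294 and 230 to 2133 and 2462, and Cfp, properdin, from 16 and 15 to 566 and 704. Cd55, which shields cells from complement, rose from 40 and 50 to 665 and 774 with 68 and 56 in the control libraries. The adhesion molecules for leukocytes Vcam1 and Icam1 rose by 2.32 and 4.35. Vcam1 stood at 368 and 364, 665 and 634 and 1810 and 1896 in activated, control and miR-15a libraries, with no overlap. Birc3, an NF-κB target that blocks cell death, rose by 1.79.

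Markers of quiescent stellate cells moved both ways. In this list 38.1% rose and 28.6% fell, beside 16.8% and 21.6% of all genes. Of 21 tested 8 rose and 6 fell, and the count of 8 was 5 without miR-15a library a. The median of -0.05 against -0.10 for all genes became 0.08 with median-ratio scaling. Plin2, the coat protein of lipid droplets, stood at 703 and 685 in the activated libraries, 1508 and 1573 with miR-15a, 676 and 688 with the control and 3446 and 3514 in quiescent cells (log2 fold change 1.14 ± 0.05, adjusted p = 8.6e-06). The miR-15a libraries did not overlap with either other activated group. Hgf, the growth factor for hepatocytes, rose from 166 and 148 to 340 and 358, with 966 and 945 in quiescent cells. Ednrb, which binds endothelin and is also found on endothelium, went from 30 and 24 to 4368 and 4546, or 69% of the quiescent mean. Reln and Colec11, which stellate cells express in quiescence, were low in all activated groups. Reln rose from 14 and 22 to 67 and 82, against 7724 and 8724 in quiescent cells, and Colec11 from 1 and 3 to 8 and 9, against 1208 and 1332, a call that was lost without activated library a or either miR-15a library. Ngfr, a neurotrophin receptor, fell from 477 and 452 to 108 and 138 and Pparg, a nuclear receptor of adipogenesis, from 378 and 357 to 184 and 198 (-0.93 ± 0.13, adjusted p = 0.0014). Pparg was 240 and 204 with the control, and no difference between miR-15a and control was called (adjusted p = 0.26). In quiescent cells the mean score was 220 for Ngfr and 58 for Pparg, below the activated libraries. The decrease of Pparg therefore went toward the quiescent level, and that of Ngfr went below it. Some members of the list were thus lower in quiescent than in activated cells. Hgf, Reln and Colec11 were named after their values were seen. Lrat, the enzyme that esterifies vitamin A, is not among the genes of the table used here.

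Retinoid genes were also divided, with 6 higher and 3 lower of 13, and 1 lower without activated library b or miR-15a library b and with median-ratio scaling. The 6 and 3 genes made up 46.2% and 23.1% of the list, beside 16.8% and 21.6% of all genes. Rarb, a retinoic acid receptor, rose from 15 and 14 to 54 and 60 and Dhrs3, which returns retinal to retinol, from 458 and 519 to 788 and 760, while Aldh1a3, which makes retinoic acid, fell from 1614 and 1573 to 808 and 820. Of 22 adipogenic and lipid droplet genes 9 rose and 6 fell, and the count of 6 was 2 without activated library b and 3 without miR-15a library a or with median-ratio scaling. In the main fit 40.9% of that list rose and 27.3% fell. Cd36, a fatty acid transporter of endothelium, fat and macrophages, rose from 206 and 135 to 2670 and 2866, and Lpl, which frees fatty acids from lipoproteins, from 154 and 177 to 473 and 499. With the control Cd36 stood at 194 and 250 and Lpl at 151 and 141, below both miR-15a libraries.

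Most genes of mitosis fell. Of 30 mitotic genes 22 fell and none rose, with a median of -0.78 and 24 lower and 0 higher at an unadjusted p under 0.05, and 13 fell without activated library b. Anln, which organises the cleavage furrow, stood at 1308 and 1332 in the activated libraries, 842 and 813 with the control and 533 and 489 with miR-15a. Top2a, which untangles chromosomes, went from 1772 and 1810 to 920 and 830 (log2 fold change -1.03 ± 0.11, adjusted p = 0.00043), and Prc1, of the central spindle, from 784 and 799 to 447 and 432. In each of these 3 genes the control libraries lay between, and miR-15a was lower than the control by the test. Of 30 DNA replication genes 7 rose (23.3%) and 3 fell (10%), beside 16.8% and 21.6% of all genes, with a median of 0.00. Fewer rose without miR-15a library b. With the control microRNA 8 rose (26.7%) and 0 fell, beside 7.18% and 6.61% of all genes. Between miR-15a and control 0 were higher and 8 lower (26.7%), beside 14.4% and 15.4% of all genes, with a median of -0.29. Against activated cells Mcm2 and Mcm7, subunits of the replicative helicase, rose by 0.94 and 0.60. Mcm2 stood at 184 and 177, 357 and 347 and 432 and 498 in activated, miR-15a and control libraries, so it was highest with the control. Rrm1 and Rrm2, subunits of ribonucleotide reductase, fell by 0.78 and 0.66.

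Regulators of cell death and of the p53 response were higher more often than lower. Of 26 genes of the BCL2 family and apoptosis 16 rose and none fell, with a median of 0.46, and 16 were higher and 1 lower at an unadjusted p under 0.05. With any 1 library left out 14 to 16 rose, and 1 fell without either quiescent library or miR-15a library a. Apaf1, the scaffold of the apoptosome, stood at 456 and 456 in the activated libraries and 945 and 936 with miR-15a, and the control libraries had 662 and 592 (log2 fold change 1.04 ± 0.07, adjusted p = 3.5e-05). Xiap, an inhibitor of caspases, rose as well, from 612 and 575 to 1170 and 1268, so activators and inhibitors were both among the increases. Bcl2a1b, a survival factor of leukocytes with near-identical copies whose reads may be split, went from 24 and 22 to 124 and 143. Of 19 p53 targets and inhibitors of cyclin-dependent kinases 10 rose (52.6%) and 1 fell (5.26%), beside 16.8% and 21.6% of all genes. Fewer rose without activated library a, and the 1 decrease was not called without activated library b or miR-15a library b. Trp53inp1, a promoter of cell death, rose from 896 and 746 to 1977 and 1976, Mdm2, which degrades p53, by 0.58 and Gadd45a, which slows division after DNA damage, by 2.17.

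Ribosomal, mitochondrial, antioxidant and lysosomal genes were mostly higher. Of 33 cytosolic ribosomal protein genes 25 rose and none fell (median 0.37), with 26 higher and 0 lower at an unadjusted p under 0.05. Without activated library b 17 rose, and without miR-15a library b 1 fell. Rpsa stood at 5029 and 4900 in the activated and 8204 and 8204 in the miR-15a libraries, and Rps18 at 2076 and 1664 and 4086 and 3682. Ribosomal protein genes have many processed copies that can share their reads, which makes these values uncertain. Of 31 oxidative phosphorylation genes 19 rose and 1 fell (median 0.30). The count of 19 was 9 without activated library b and 11 without either miR-15a library, and 2 fell without miR-15a library a. Cox4i1, a subunit of cytochrome c oxidase, went from 2732 and 2528 to 4168 and 4446. Of 18 targets of the oxidative stress factor NRF2 13 rose and 1 fell (median 0.77), and 2 fell without either quiescent library. Prdx1, a peroxiredoxin, went from 4663 and 4663 to 10504 and 10504 and Nqo1, a quinone reductase, from 422 and 394 to 757 and 808. Of 28 lysosomal genes 20 rose and 1 fell (median 0.45). The count of 1 was 0 with median-ratio scaling and without activated library a, activated library b or miR-15a library b, and 2 without either control library. The protease genes Ctsb and Ctsd went from 6000 and 6288 to 20500 and 20500 and from 8724 and 9198 to 20500 and 18666, all on shared steps of the scale. Of 24 genes of endoplasmic reticulum chaperones and the unfolded protein response 3 were higher (12.5%) and 5 lower (20.8%), no more than the 16.8% and 21.6% of all genes. The count of 3 was 6 with median-ratio scaling and 1 without activated library a, activated library b or miR-15a library b. Hsp90b1, an endoplasmic reticulum chaperone, fell by 0.57.

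**Figure D4:**
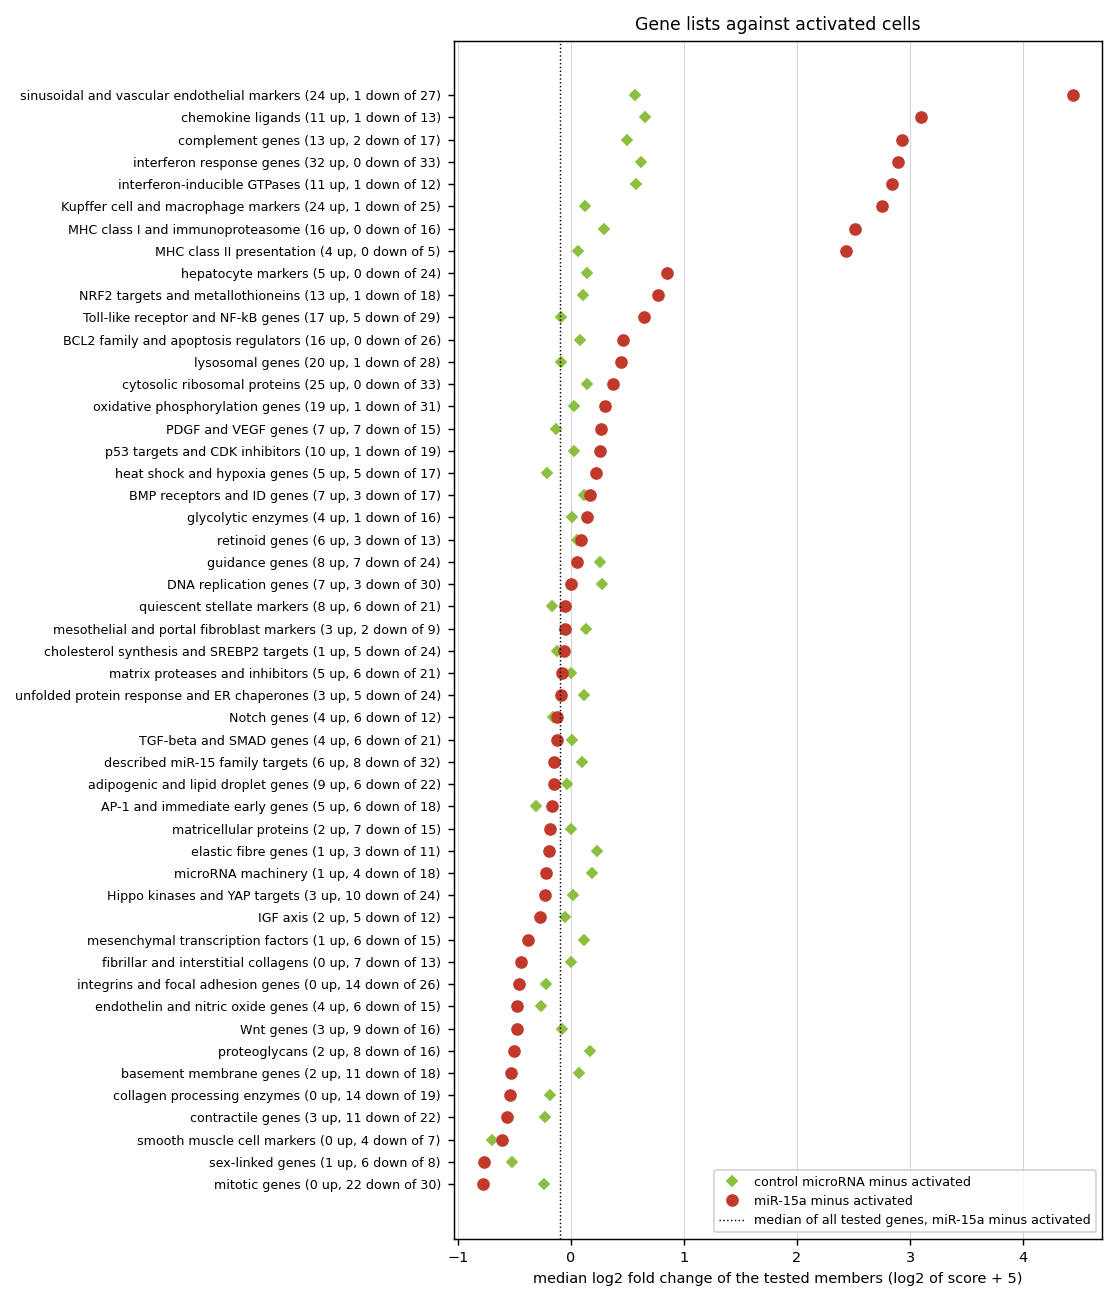
The median log2 fold change of the tested members (horizontal axis) is shown for each gene list with at least 5 tested genes, as a red circle for miR-15a minus activated and a green diamond for control microRNA minus activated, which share the activated libraries. Beside each name are the counts called with miR-15a, and endothelial markers have the highest median at 4.44 and mitotic genes the lowest at -0.78, and the dotted line marks the median of all genes at -0.10.

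Genes that pair with the miR-15a seed were then compared with the other genes. A 3′ UTR was found for 12533 genes of the table (88.5%, GENCODE M21 on GRCm38, the longest of the coding transcripts). Of these 23.9% held TGCTGCT and 4.48% held TGCTGCTA, read 5′ to 3′ along the messenger RNA. Among tested genes the median log2 fold change against activated cells was -0.07 for the 8973 without a site, -0.11 for the 2899 with any site and -0.12 for the 540 with the site followed by A. Genes called lower made up 20.4%, 23.4% and 23.1% of these classes, against 21.1% of all 11872 tested genes with a 3′ UTR. Genes with a site had longer 3′ UTRs, with a median of 2329 bases against 918, and within 3 equal classes of 3′ UTR length the difference between genes with and without a site was -0.0043 for short, 0.0368 for middle and -0.0323 for long ones. The sign of the difference thus changed between the length classes, and no test was made of it. For the control microRNA against activated cells the difference over all lengths was 0.0359. Between miR-15a and control libraries it was -0.0682, and genes called lower made up 21.9% of those with a site and 14.3% of those without. By length class these shares were 13.6% and 8.76% for short, 17.2% and 15.6% for middle and 25.4% and 21.9% for long 3′ UTRs, while the differences of the medians were 0.0096, 0.0016 and -0.0551.

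**Figure D5:**
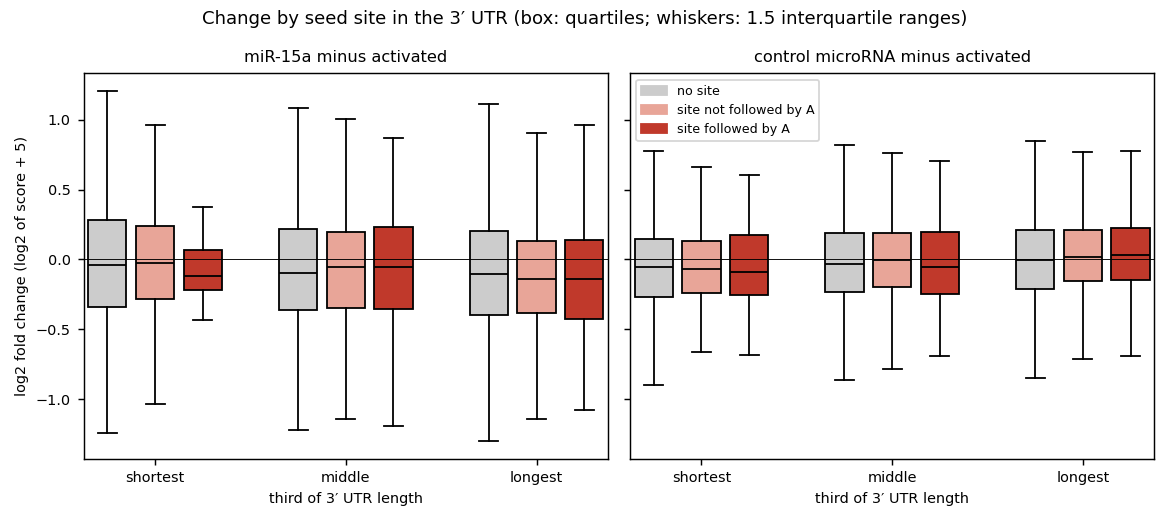
Boxes show the quartiles of the log2 fold change (vertical axis) of tested genes by class of 3′ UTR length and by seed site in the 3′ UTR, for miR-15a minus activated on the left and control microRNA minus activated on the right, and whiskers reach 1.5 interquartile ranges. The boxes of genes without a site, with a site and with a site followed by A overlap in every length class.

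There were 1132 genes with a 3′ UTR that were lower with miR-15a than in both activated and control libraries. Among them 68 (6.01%) held a site followed by A, beside 4.55% of all 11872 tested genes with a 3′ UTR. These shares were not matched for 3′ UTR length. A site followed by A was held by 41 of 3957 genes in the shortest length class and by 359 of 3958 in the longest. Genes lower than with the control made up 9.1% and 23.5% of these classes. The difference in shares thus cannot be told apart from length. From the 68 genes, the 10 with the smallest p against activated cells are shown with the 22 bases that end in the match. The bases are read 5′ to 3′ along the messenger RNA, with the complement of the seed and the A in capitals. The site can be compared with the seed of miR-15a above, while the bases before it differ from gene to gene.
Ddx3y: cataacagacttttTGCTGCTA
Thbs2: tcctttcctgtcccTGCTGCTA
Uggt2: gccgccgccgccgcTGCTGCTA
Wnt4: aagccagctccggaTGCTGCTA
Adam12: ctcactggcctgtgTGCTGCTA
Cast: tgaaatttaaaatcTGCTGCTA
Kif23: aaaaaacaaacaaaTGCTGCTA
Lims1: tttttaaatttttcTGCTGCTA
Plcxd2: aaataataatacctTGCTGCTA
Pi15: atagttgcctattcTGCTGCTA
The match in Thbs2 lies at chr17:14666620-14666627 on the minus strand in exon 22 of 22, and that in Adam12, a metalloprotease of fibroblasts, at chr7:133883586-133883593 on the minus strand in exon 23 of 23. In Kif23, a kinesin of cytokinesis, it lies at chr9:61917465-61917472 on the minus strand in exon 23, in Cast, the calpain inhibitor, at chr13:74693903-74693910 on the minus strand in exon 32, and in Lims1, an adaptor of focal adhesions, at chr10:58423144-58423151 on the plus strand in exon 10. Of the transcripts of Cast with a 3′ UTR 2 of 7 held the match, and it was 1 of 3 for Lims1 and 1 of 2 for Adam12.

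No change of the control libraries against activated cells was called for 5 of these 10 genes, Adam12, Cast, Plcxd2, Kif23 and Pi15, and the other 5 were lower there too. Adam12 stood at 2330 and 2420 in the activated libraries, 2106 and 2204 with the control and 1190 and 1068 with miR-15a, so that neither miR-15a library reached the others (log2 fold change -1.07 ± 0.09, adjusted p = 0.00011; against the control -0.93, adjusted p = 0.00033). Cast stood at 1380 and 1380, 1486 and 1472 and 956 and 956 in the same order, and Plcxd2, of a family of phospholipase C domain proteins, at 1634 and 1602, 1647 and 1572 and 912 and 973. Kif23 fell from 248 and 258 to 126 and 140, with 202 and 199 in the control libraries. Pi15, a secreted protease inhibitor, stood at 499 and 547, 396 and 435 and 297 and 320 in activated, control and miR-15a libraries, and Lims1 at 5764 and 5764, 5027 and 4776 and 4168 and 4168. The matrix gene Thbs2 and the ligand gene Wnt4 were lower in the control libraries too, by 0.85 and 0.98, and fell further with miR-15a. Uggt2, a folding sensor of glycoproteins, fell by 1.20 and by 0.65 with the control. Ddx3y is Y-linked, and its values moved with Xist as given above, so its place among these genes cannot be told apart from the difference in sex-linked transcripts.

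Genes described before as targets of the miR-15 family were called about as often as other genes. Of 32 tested 8 fell (25%) and 6 rose (18.8%), beside 21.6% and 16.8% of all genes, with a median of -0.15 against -0.10 for all genes, and the count of 8 was 5, 3 and 4 without activated library a, activated library b and miR-15a library b. Against the control microRNA 12 were lower (37.5%) and 4 higher (12.5%), beside 15.4% and 14.4% of all genes. The windows around the seed match of 4 of them are shown to compare them with those above, with capitals as before.
Bcl2: aataagaaaccctgTGCTGCTA
Ccne1: tcttattttgtaagTGCTGCTA
Ccnd1: tgtgcatgccaccaTGCTGCTg
Bmpr1a: gaaatggcaaacgcTGCTGCTt
Bcl2, the best known of them, held the site followed by A in 1 of 2 transcripts with a 3′ UTR. It stood at 92 and 108 in the activated libraries, 87 and 98 with miR-15a and 118 and 143 with the control. Its activated and miR-15a libraries overlapped and no change was called (-0.10 ± 0.15, adjusted p = 0.6), and the sign turned with median-ratio scaling (0.03) and without activated library b (0.01). Ccnd1, cyclin D1, rose from 2386 and 2276 to 3168 and 3204 (0.45 ± 0.06, adjusted p = 0.0013). Ccne1, cyclin E1, stood at 170 and 175 and 141 and 141 and was not called (adjusted p = 0.11). Mcl1, a survival factor, rose from 1215 and 1215 to 1648 and 1614. Bmpr1a and Bace1, a protease, were the members with the smallest p: Bace1 fell from 1050 and 1162 to 628 and 581 and stood at 1023 and 1086 with the control. Their sites are TGCTGCT not followed by A, in exon 13 of 13 of Bmpr1a at chr14:34412620-34412626 on the minus strand, and at 2 positions in exon 9 of Bace1, the first at chr9:45860562-45860568 on the plus strand. Of 18 genes of the microRNA machinery 4 fell (22.2%) and 1 rose (5.56%), beside 21.6% and 16.8% of all genes. Against the control microRNA 9 were lower (50%) and 0 higher, beside 15.4% and 14.4% of all genes. The count of 4 was 1 with median-ratio scaling, and it was smaller without either activated library or miR-15a library b. Mov10, an RNA helicase that binds Argonaute and is also induced by interferon, rose from 30 and 26 to 71 and 56 and stood at 73 and 71 with the control.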

How the data were processed

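RNA of 8 libraries of mouse hepatic stellate cells was sequenced as single-end reads. The submitters' processing notes name STAR, Subread, featureCounts and mm10, without versions. The deposited values are whole-number scores whose 910 distinct values are the same in every library, and the authors' normalization step is not given in the sources used here. Because these scores are not counts, no count model was used.

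Genes that reached a score of 10 in no fewer than 2 libraries were fitted with limma 3.58.1 in R 4.3.3 on log2(score + 5), with 4 group means, 4 residual degrees of freedom, a prior variance that follows the mean level, and Benjamini-Hochberg adjustment over 13150 genes. Genes were named by a rule: the 12 largest increases and 12 largest decreases with a mean of at least 50 in the higher group and no overlap, up to 4 genes of smallest p in each list, a fixed set, and 10 genes lower than both groups with the 8-base seed match. The members, the lists and the rule were chosen with earlier results of these data known. Alternatives were another pseudocount, filter, scaling, prior, sample set and a replicate block, and each library left out. The fit was tested on simulated data. Libraries share the letters a and b, and the labels do not say that a letter marks a shared animal or day.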

Additional observations from a re-analysis of the deposited data

How the results depend on the processing

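The counts of 2204 genes higher and 2841 lower stayed within 1.5 times under pseudocounts of 1 and 20, no filter, a minimum of 50, a fit of the activated and miR-15a libraries alone, 1 prior for all genes, and without genes over 20000. With median-ratio scaling 1620 genes were lower, and among genes with a mean of at least 100, chosen after seeing the data, 1877 were lower. A log2 fold change over 1 left 827 higher and 351 lower. With 1 library left out the counts ranged from 1526 to 2281 higher and from 1129 to 2858 lower. Where this left 1 activated or miR-15a library, that library was assumed to vary like the other groups. The log2 fold change of Col1a1 was 0.0773 with median-ratio scaling. That of Bcl2 was 0.0324 with that scaling and ranged from -0.2151 to 0.0051 with 1 library left out, the latter without activated library b. For Dleu2 the range was -0.0516 to 0.0859, below 0 without activated library a and without miR-15a library b, and none of these were called. The difference between genes with and without a seed site was 0.0368 in the middle class of 3′ UTR lengths. The cause of these shifts was not tested, beyond the fewer genes or samples that an alternative uses. With the replicate letter as a replicate block 2144 genes were higher and 2599 lower. The differences of library b minus library a in the activated and miR-15a groups correlated at r = 0.046 across genes. The other groups were not compared in this way, so this value alone cannot settle whether a letter marks a pairing. With 2 libraries a group and no known depth, small changes and genes near the bottom of the scale are measured least precisely.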

Other observations

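Of 15 endothelin and nitric oxide genes 4 rose (26.7%) and 6 fell (40%), beside 16.8% and 21.6% of all genes. Their median was -0.48 against -0.10 for all genes. Adm, the vasodilator adrenomedullin of the hypoxia list, stood at 45 and 42 in the activated libraries, 56 and 56 with the control and 246 and 255 with miR-15a. Edn1, the vasoconstrictor endothelin, stood at 88 and 75, 110 and 110 and 634 and 722 in the same order, and endothelial cells, whose markers also rose, express both. Hif1a, the oxygen-regulated transcription factor, went from 2360 and 2605 to 4265 and 4368. Of 17 heat shock and hypoxia genes 5 rose and 5 fell, with 10 higher and 3 lower with median-ratio scaling, and 3 lower without activated library a, activated library b or miR-15a library a. In the main fit 29.4% of the heat shock and hypoxia list rose and 29.4% fell. Prkg1, the kinase through which nitric oxide relaxes muscle, fell from 1046 and 1124 to 428 and 442 and stood at 734 and 708 with the control.

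Of 18 AP-1 and immediate early genes 5 rose and 6 fell, and the count of 6 was 3 with median-ratio scaling and without either activated library, and 2 without miR-15a library b. In the main fit 27.8% of the list rose and 33.3% fell, beside 16.8% and 21.6% of all genes. Egr2 fell from 513 and 563 to 187 and 173, while Atf3, a stress-induced factor, rose from 90 and 72 to 262 and 256 and Maff, a partner of NRF2, from 1010 and 1024 to 1977 and 2108. The control libraries had 84 and 68 for Atf3 and 1076 and 956 for Maff. Of 24 genes of cholesterol synthesis 1 rose and 5 fell, or 4.17% and 20.8% beside 16.8% and 21.6% of all genes. With median-ratio scaling 4 rose and 3 fell, and 3 fell without activated library a or miR-15a library b and 2 without activated library b. The increase was that of Insig1, which restrains sterol synthesis, from 377 and 356 to 652 and 640. Sqle, an enzyme of the pathway, fell from 652 and 622 to 478 and 432.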
